A study of Mus musculus with 24 samples.

Results

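Extracellular ATP and adenosine are read by purinergic receptors and turned over by enzymes on the cell surface, and 10 genes of this system (P2rx1, P2rx4, P2rx7, P2ry1, P2ry2, P2ry14, Entpd1, Nt5e, Adora2a and Adora2b) were followed by their symbols among the 55376 genes counted in 24 bulk mRNA-seq libraries. All 10 symbols were present in every library. The set was chosen by the measured difference of P2rx7 between middle-aged TTPΔARE and WT hematopoietic stem cells (HSCs), so the values of that contrast are given as a description without a test. The libraries came from HSCs and from MPP3 cells, the granulocyte/macrophage-biased multipotent progenitors, both sorted from mouse bone marrow. Young mice (prefix Y) gave 4 libraries per genotype for HSCs and 4 per genotype for MPP3 cells, while middle-aged mice (prefix M) gave 5 WT and 3 TTPΔARE libraries of HSCs. TTPΔARE mice were homozygous for the loss of an AU-rich element in the 3′ UTR of Zfp36, the gene of the mRNA-decay protein tristetraprolin (TTP), in all cells of the body, and the WT mice were their littermates. All mice were male and untreated, the young ones 4 to 5 months and the middle-aged ones 1 year old, and the HSC gate was LSK CD34- Flk2- CD150+. The labels call the libraries replicates without stating separate animals, so p-values measure the spread between these libraries.

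ATP leaves stressed or activated cells and opens P2X channels, while nucleotides such as ADP, UTP and UDP-glucose act on G-protein-coupled P2Y receptors. The ectonucleotidase CD39, encoded by Entpd1, cuts ATP and ADP to AMP, and CD73, encoded by Nt5e, converts AMP to adenosine, which raises cAMP through the receptors encoded by Adora2a and Adora2b. In blood cells P2X7 is best known as the receptor of high ATP that triggers the inflammasome and release of IL-1β, and the UDP-glucose receptor encoded by P2ry14 has been used to mark primitive hematopoietic cells.

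TTP binds AU-rich elements, with UAUUUAU as its preferred core, so windows of the members' 3′ UTRs are shown around this core or, in genes without it, around its inner pentamer. The longest annotated 3′ UTR of a coding transcript was searched for TATTTAT and for ATTTA in the direction of the mRNA (GENCODE M21 on GRCm38), and each heptamer contains 1 pentamer. The heptamer was found 3 times in the 2117 bases of P2ry1, 1 time in the 1407 bases of P2ry2 and 1 time in the 2573 bases of Entpd1. Among genes with a 3′ UTR of like length (the shorter at least 80% of the longer), 42.7%, 33.1% and 48.8% held it, and over all 21010 genes it was 27.6%. P2rx7 held the pentamer 3 times in 2985 bases, Adora2b 3 times in 728 bases and Nt5e 2 times in 1775 bases, none of them within a heptamer. Among genes of like 3′ UTR length, 96.5%, 63.1% and 88.6% held the pentamer, with medians of 5, 1 and 3 matches. The 3′ UTRs of P2rx1, P2rx4, P2ry14 and Adora2a held no pentamer, which 65.2% of all genes held. Among genes of like length to each, 77.3%, 83.6%, 79.7% and 68.1% held it. These matches describe the annotated letters and are not measured binding sites. The windows below lie in the 3′ UTR, capitals mark the motif, and all are written 5′ to 3′ on the strand of the gene.
P2ry1, chr3:61007625-61007653, plus strand: cattgtaatagTATTTATtgaagaggttt
P2ry1, chr3:61007693-61007721, plus strand: agtgtaaattcTATTTATtgcagtgtata
P2ry1, chr3:61008019-61008047, plus strand: ttatatgtgtaTATTTATattatagaaag
P2ry2, chr7:100997116-100997144, minus strand: ggaggggctttTATTTATaacactgccaa
Entpd1, chr19:40740397-40740425, plus strand: ctctgccatggTATTTATacatcaggtgt
P2rx7, chr5:122682506-122682534, plus strand: tatttttgtaagATTTAttttatgtttga
P2rx7, chr5:122683503-122683531, plus strand: cccagtaaatgaATTTAagtccattttca
P2rx7, chr5:122684273-122684289, plus strand: tgatttcaattcATTTA
Nt5e, chr9:88370790-88370818, plus strand: acaaacattataATTTAcaagtagatttt
Nt5e, chr9:88371450-88371478, plus strand: aggcaagagtgaATTTAagaagtggtata
Adora2b, chr11:62265900-62265928, plus strand: gctaacaaatacATTTAtgaatctattca
Adora2b, chr11:62266170-62266198, plus strand: acagtagtattaATTTAgggaatgattct
Adora2b, chr11:62266223-62266251, plus strand: taataacaaaacATTTAagttcaatattt

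The libraries held 24261371 to 39934554 counts assigned to genes. Zfp36, the altered gene, lay between 20.5 and 69.2 CPM (counts scaled to library size) in the 13 WT libraries and between 81.7 and 124 CPM in the 11 TTPΔARE libraries. The summed CPM of 10 HSC markers was 3121 to 4941 in HSC libraries and 1885 to 3016 in MPP3 libraries. That of 10 granulocyte/monocyte progenitor markers was 149 to 272 against 542 to 2993, so the sums matched the labelled cell types. Not every marker did: mean Kit was 1199 CPM in Y-WT HSCs and 1387 CPM in Y-WT MPP3 cells. Mean Prtn3 was 214 CPM in M-WT HSCs and 132 CPM in Y-WT MPP3 cells. Of the Y-WT HSC libraries, 3 gave 597 to 983 CPM to olfactory and vomeronasal receptor genes, against 18.8 to 542 CPM in the other 21 libraries. The numbered library sets in the titles coincide with age and with cell type, so these cannot be told apart.

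Levels of the members are TMM-scaled CPM with a scaling shared by the 24 libraries, whereas fold changes come from a separate edgeR fit for each comparison, so the ratio of the group means can differ slightly from the fitted fold. Per kb of coding transcript, the channel genes P2rx4 (26.0 to 37.3 CPM per kb over the 6 group means) and P2rx1 (15.1 to 26.0) were the most abundant on the mean over groups. P2ry14 followed at 8.75 to 38.8, then Adora2a at 9.41 to 14.0, Entpd1 at 6.24 to 8.51 and P2ry2 at 3.75 to 10.5 CPM per kb. P2rx7 (1.42 to 5.42), Adora2b (1.36 to 3.79) and P2ry1 (1.28 to 2.81) were low, and Nt5e was close to the detection limit at 0.0676 to 0.542 CPM per kb. CD39 message was thus present at a much higher level per kb than CD73 message in every group.

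**Figure D1:**
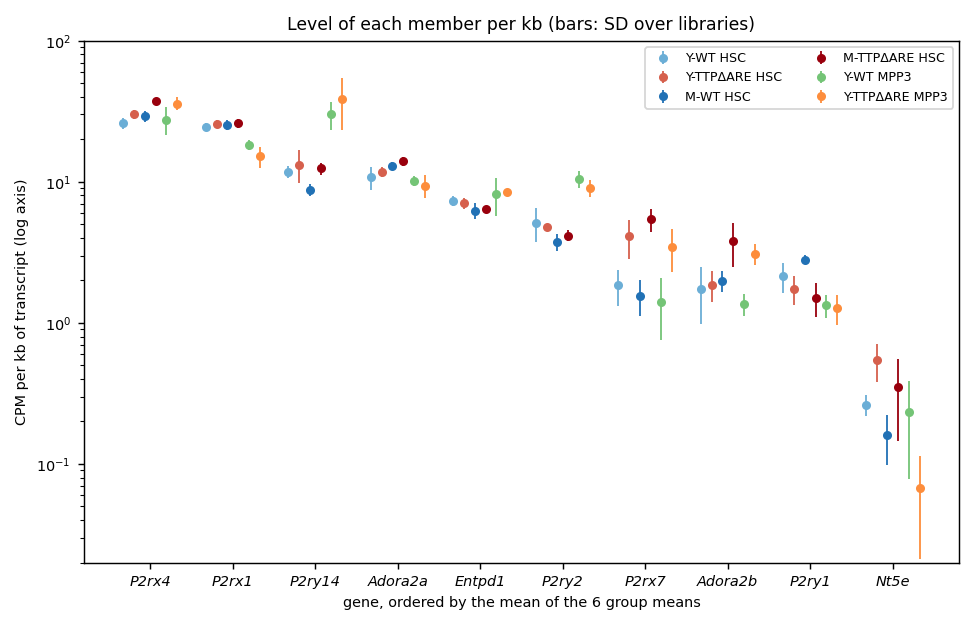
Mean CPM per kb of coding transcript (log axis) of each member in the 6 groups, with bars for the SD over 3 to 5 libraries. P2rx4 and P2rx1 lie highest on average, P2ry14 reaches 38.8 in Y-TTPΔARE MPP3 cells, and Nt5e lies below 0.55 in every group. The order of the genes depends on the transcript length used.

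The first comparison asked whether the members differed between TTPΔARE and WT cells, first in young HSCs. P2rx7 was higher in Y-TTPΔARE HSCs in all libraries but did not pass the test across all genes. Its CPM was 9.09, 6.03, 8.99 and 12.4 in the Y-WT HSC libraries and 21.5, 28.3, 17.2 and 13.8 in the Y-TTPΔARE HSC libraries. The ranges did not overlap, with means of 9.12 ± 2.59 (SD, n = 4) and 20.2 ± 6.27 CPM (n = 4). The log2 fold change was 1.11 (SE 0.25, 95% interval 0.62 to 1.60) with an adjusted p of 0.244 in edgeR's quasi-likelihood test over 24381 genes. An exact two-sided permutation test over the 8 libraries gave p = 0.0286, the smallest value that 4 against 4 libraries allow. Any gene with ranges apart gets this value here, Nt5e included, and it is not adjusted over the members. DESeq2 (adjusted p = 0.00388), edgeR's likelihood ratio test (0.0138) and the quasi-likelihood test without a filter on low counts (0.0340) each called P2rx7 in this comparison, so the call depends on the test.

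Nt5e, which encodes the AMP-cleaving enzyme CD73, was the other member whose ranges were apart in young HSCs. It measured 0.839, 1.12, 1.00 and 1.24 CPM in Y-WT and 1.89, 2.90, 2.46 and 1.42 CPM in Y-TTPΔARE HSCs, all of them low. The log2 difference was 1.00 (SE 0.35, adjusted p = 0.499), and the average level was under the abundance limit of the calls (logCPM 1.5). The quasi-likelihood test called none of the 10 members in young HSCs, with 2 (P2rx7 and Nt5e) at an unadjusted p under 0.05, where 0.0246% of all genes tested were called (6 of 24381) and 1799 genes had an unadjusted p under 0.05. The 2 members with ranges apart compare with 6.01% of all genes tested. The other 8 members had log2 differences between -0.33 (P2ry1) and 0.16 (P2rx4), and the median over the 10 members was 0.07, against -0.07 over all genes and 0.03 over those above the abundance limit.

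In young MPP3 cells, Adora2b was the member called, and P2rx7 was again higher without passing. Adora2b encodes the low-affinity adenosine receptor. Its CPM was 2.22, 3.18, 2.21 and 2.44 in Y-WT and 5.58, 4.53, 6.97 and 5.82 in Y-TTPΔARE MPP3 libraries, so every Y-TTPΔARE library lay above every Y-WT library. The log2 fold change was 1.15 (SE 0.24, 95% interval 0.67 to 1.62, adjusted p = 0.0443), from 2.51 ± 0.456 to 5.72 ± 1.00 CPM (SD, n = 4 each). This call stood close to the threshold: it was lost in each of the 8 fits that left out 1 library (adjusted p 0.0519 to 0.151) and without the filter on low counts (adjusted p = 0.0644). In young HSCs the same gene measured 3.19 ± 1.37 and 3.43 ± 0.835 CPM, a log2 difference of 0.05 (95% interval -0.67 to 0.77). The difference of the genotype effect between MPP3 cells and HSCs was 0.99 (SE 0.45, adjusted p = 0.439) and did not pass.

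P2rx7 was 9.66, 2.54, 9.28 and 6.48 CPM in Y-WT and 22.5, 21.7, 12.2 and 11.9 CPM in Y-TTPΔARE MPP3 libraries. Here too the ranges did not overlap, and the spread within Y-TTPΔARE was wide. The log2 fold change was 1.30 (SE 0.40, 95% interval 0.51 to 2.09, adjusted p = 0.193). The exact permutation p was again the smallest possible, 0.0286, as it was for Adora2b in these cells. DESeq2 called it (adjusted p = 0.0345), as did the quasi-likelihood fits without the filter (0.0364) and with all 24 libraries (0.0270), the last of which includes the middle-aged libraries that chose the set. The effect in MPP3 cells differed from that in HSCs by 0.07 (SE 0.51, 95% interval -0.94 to 1.07, adjusted p = 0.974), an interval too wide to show that the effects were alike. That difference changed sign in 4 of the 16 fits that left out 1 library.

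Among the remaining members in MPP3 cells, P2rx4, an ATP channel of endolysosomes and the cell surface, had a log2 difference of 0.36 (adjusted p = 0.404). P2rx1, the rapidly desensitizing ATP channel known from platelets and neutrophils, had one of -0.31 (adjusted p = 0.429). For Nt5e it was -1.79 (SE 0.96, adjusted p = 0.498), with 1.62, 0.289, 1.27 and 0.544 CPM in Y-WT and 0, 0.298, 0.397 and 0.385 CPM in Y-TTPΔARE MPP3 cells. Nt5e therefore had a positive log2 difference in HSCs and a negative one in MPP3 cells, and the interaction term was -2.91 (SE 1.03, adjusted p = 0.291). In MPP3 cells, 1.71% of all genes tested were called (326 of 19023), and 1 of the 10 members was. Ranges were apart for 2 members and for 9.96% of all genes. Neither the quasi-likelihood test nor DESeq2 called a member for a different genotype effect between the cell types, with 3 (P2rx1, Nt5e and Adora2b) at an unadjusted p under 0.05, where 0.429% of 26337 genes were called (113 by the quasi-likelihood test, with 2817 at an unadjusted p under 0.05).

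**Figure D2:**
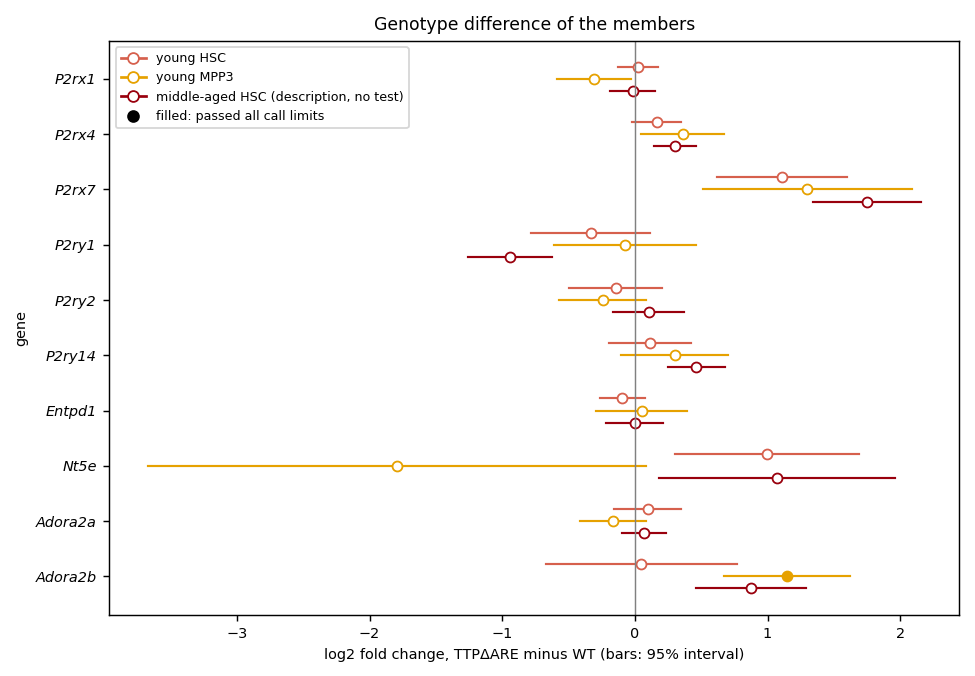
Log2 fold change of TTPΔARE against WT for each member in young HSCs, young MPP3 cells and middle-aged HSCs, with bars for the 95% interval. P2rx7 has intervals above 0 in both young comparisons, its middle-aged value is that of the contrast that chose the set, and the filled point, Adora2b in MPP3 cells at 1.15, is the only call.

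Middle-aged HSCs are the contrast from which the set was drawn, and their values are a description. P2rx7 measured 5.06, 10.01, 6.66, 6.75 and 9.96 CPM in M-WT and 32.0, 25.8 and 22.4 CPM in M-TTPΔARE HSCs. The log2 difference was 1.75 (SE 0.21), from 7.69 ± 2.20 CPM (n = 5) to 26.7 ± 4.87 CPM (n = 3), and it lay between 1.60 and 1.87 when each library was left out in turn. P2ry1, the ADP receptor of platelets, was lower, with 10.8, 9.85, 10.5, 11.8 and 11.6 CPM in M-WT and 4.59, 7.63 and 5.39 CPM in M-TTPΔARE (log2 difference -0.94, SE 0.16). Adora2b measured 2.92 to 4.37 CPM (median 3.63) and 9.75, 5.80 and 5.42 CPM, a log2 difference of 0.88 (SE 0.21). P2ry14 was 18.1 to 23.4 CPM against 29.2, 29.1 and 34.4 CPM (log2 difference 0.46), and P2rx4 was 70.5 to 88.6 CPM against 96.7, 104 and 102 CPM (log2 difference 0.30). For these 5 members the ranges were apart, as for 11.6% of the 21136 genes in the fit, and nothing is read from this count because the contrast chose the set. Nt5e overlapped (0.342 to 0.960 against 0.722 to 2.31 CPM), with a log2 difference of 1.07, and P2rx1, P2ry2, Entpd1 and Adora2a had log2 differences between -0.02 and 0.10. Single M-TTPΔARE libraries weighed on these values: without replicate 2 the difference of Nt5e was 0.50 and that of P2ry1 was -1.17, and without replicate 1 that of Adora2b was 0.56. Beside P2ry1, the summed CPM of 8 megakaryocyte and platelet markers was 197 to 235 in M-WT and 150 to 176 in M-TTPΔARE, and its part in the P2ry1 difference was not tested. Within that sum Itga2b was lower (mean 128 against 64.3 CPM), while the means of Pf4 (22.9 and 33.3 CPM), Ppbp (3.05 and 4.90 CPM) and Gp5 (21.2 and 23.0 CPM) were higher in M-TTPΔARE.

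Across the 6 groups P2rx7 was lowest in Y-WT MPP3 (6.99 CPM), then M-WT HSC (7.69), Y-WT HSC (9.12), Y-TTPΔARE MPP3 (17.1), Y-TTPΔARE HSC (20.2) and M-TTPΔARE HSC (26.7). The 3 WT groups came before the 3 TTPΔARE groups, and the ranges of each pair of neighbours in this order overlapped. The places of M-WT HSC and M-TTPΔARE HSC come from the contrast that chose the set, so the order is a description. Of the 5 genes with the highest Pearson r of log2 CPM with P2rx7 over the 24 libraries, among 13444 genes, 4 are given here: Rab19 (r = 0.85), Zfp36 (0.84), Dok3 (0.84) and Fam169b (0.83). Zfp36 is the gene that the mutation alters, and the points share the genotype groups, so the likeness is a description. The 24 libraries also include those of the contrast that chose the set. By Spearman's rho, Rab19 stayed among the top 5 and the other 3 did not, and over the 16 young libraries none of the 4 was among the top 5.

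**Figure D3:**
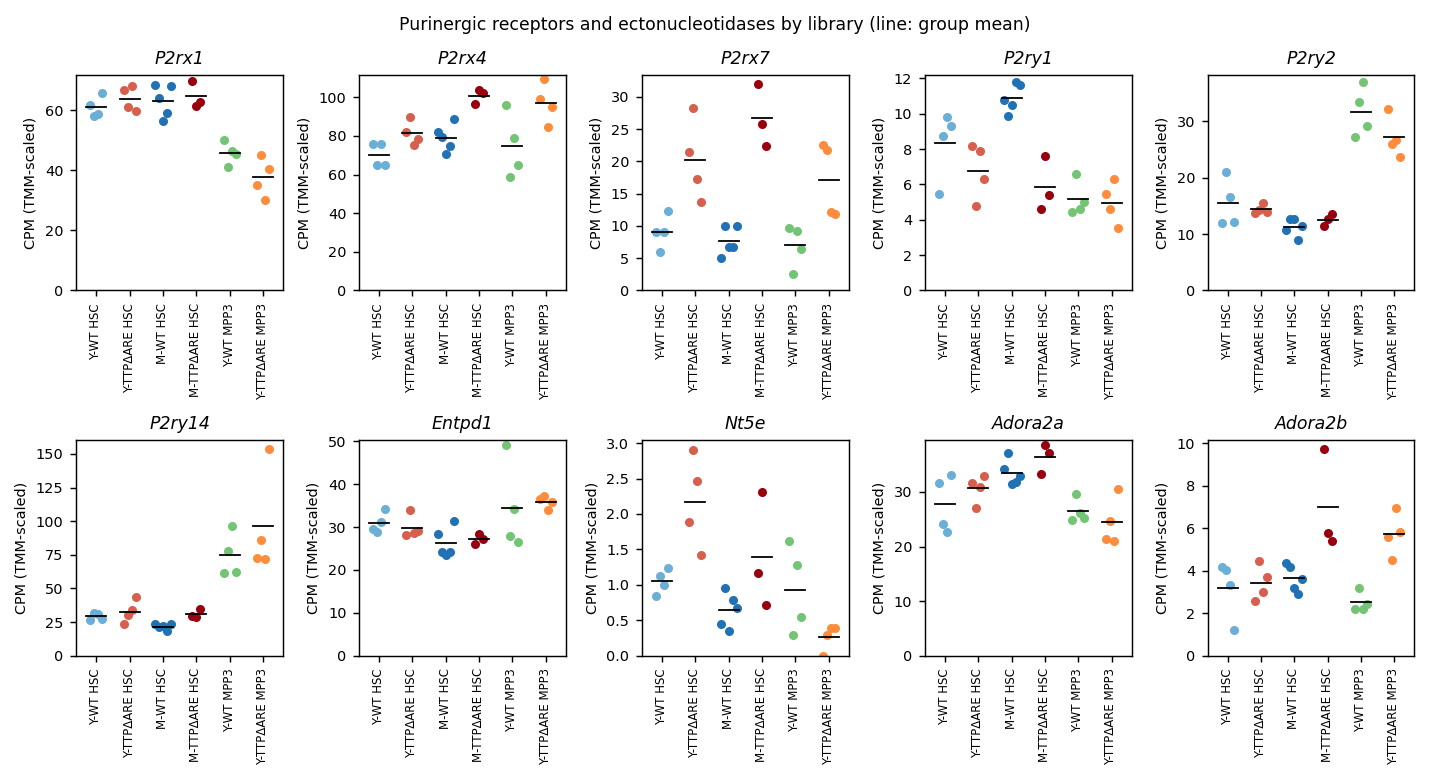
CPM of each member in every library (points) and the group mean (line) for the 6 groups. P2rx7 is higher in TTPΔARE than in WT libraries within each age and cell type, and Adora2b is so in MPP3 cells and middle-aged HSCs. The middle-aged HSC points belong to the contrast that chose the set. P2ry2 and P2ry14 are higher in MPP3 cells than in HSCs.

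Markers of HSCs and of other cell types differed by genotype in the same libraries. The summed CPM of the 10 HSC markers was 3121 to 3509 in Y-WT and 3649 to 3729 in Y-TTPΔARE HSCs, without overlap. In middle-aged HSCs it was 3772 to 4484 in M-WT and 4545 to 4941 in M-TTPΔARE. There the means of Fgd5 (133 and 121 CPM), Ctnnal1 (66.5 and 56.1 CPM) and Ly6a (254 and 231 CPM) were lower in M-TTPΔARE. In MPP3 cells the HSC marker sums overlapped. T cells carry P2X7, and the summed CPM of 11 T and NK cell markers was 85.9 to 109 in Y-WT and 129 to 258 in Y-TTPΔARE HSCs, without overlap. The Cd3 genes (Cd3e, Cd3g and Cd3d) summed to 22.6, 8.55, 16.0 and 16.0 CPM in the Y-WT HSC libraries and to 64.1, 60.5, 21.1 and 29.3 CPM in the Y-TTPΔARE HSC libraries. The 2 Y-TTPΔARE HSC libraries with the highest Cd3 sums also had the highest P2rx7. Without these 2 libraries, an alternative chosen after the data were seen, the log2 difference of P2rx7 was 0.75 (SE 0.25), a value that had to fall because the same 2 libraries were the highest in P2rx7. In MPP3 cells the Cd3 sum was 0 to 1.17 CPM in Y-WT and 0.813 to 5.48 CPM in Y-TTPΔARE. In middle-aged HSCs it was 0.253 to 2.19 CPM in M-WT and 0.913 to 9.62 CPM in M-TTPΔARE. The parts of T cells and of the HSC marker differences in the P2rx7 values were not tested.

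**Figure D4:**
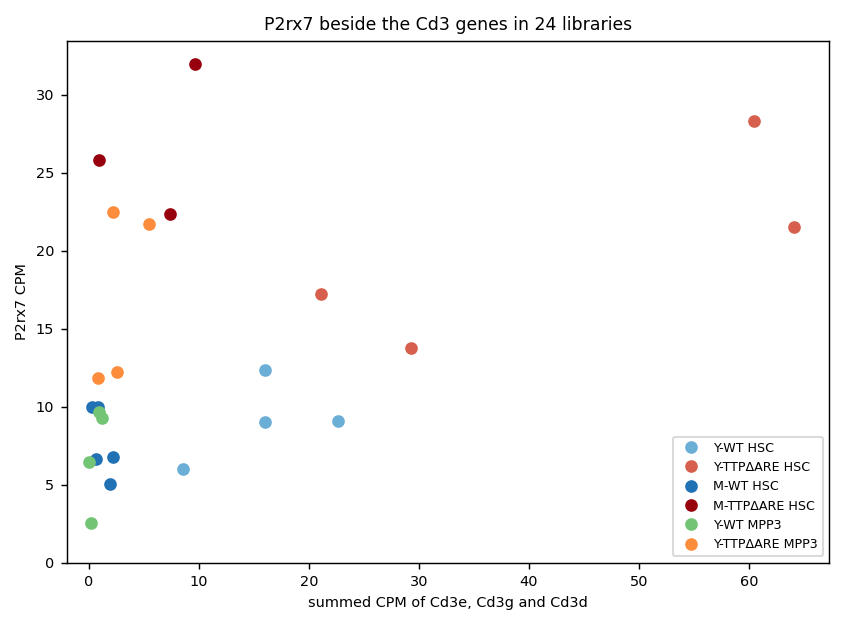
P2rx7 CPM against the summed CPM of Cd3e, Cd3g and Cd3d in the 24 libraries, coloured by group. Cd3 sums reach 22.6 CPM in Y-WT HSC and 64.1 CPM in Y-TTPΔARE HSC libraries and lie at or below 9.62 CPM in the other 4 groups, and the M-TTPΔARE HSC points belong to the contrast that chose the set.

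Beside Adora2b in MPP3 cells, the summed CPM of 10 monocyte and macrophage markers was 518 to 864 in Y-WT and 1100 to 1926 in Y-TTPΔARE, and the macrophage marker Adgre1 was 2.21 to 5.19 against 15.8 to 26.2 CPM. Mast cell and basophil markers (6 genes) summed to 34.9 to 80.8 against 90.1 to 268 CPM, and erythroid markers (8 genes) to 15.2 to 34.1 against 60.1 to 182 CPM. In young HSCs the erythroid sum was 45.1 to 56.1 CPM in Y-WT and 128 to 374 CPM in Y-TTPΔARE. The part of these cells in the values of Adora2b and P2rx7 was not tested, and in bulk samples fewer cells of a type and less RNA per cell cannot be told apart.

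The second comparison asked how the members differed between HSCs and MPP3 cells of young mice, in WT and separately in TTPΔARE. In both genotypes P2ry14 and P2ry2 were higher and P2rx1 was lower in MPP3 cells. P2ry14 measured 26.6, 32.1, 31.1 and 27.3 CPM in Y-WT HSCs and 61.5, 77.7, 96.4 and 62.5 CPM in Y-WT MPP3 cells, a log2 fold change of 1.31 (SE 0.14, adjusted p = 2.05e-04). In TTPΔARE it measured 23.5, 30.0, 33.7 and 43.9 CPM in HSCs and 72.9, 86.0, 72.1 and 154 CPM in MPP3 cells (log2 fold change 1.43, SE 0.23, adjusted p = 0.00156). The MPP3 ranges lay above the HSC ranges in both, and without the Y-TTPΔARE MPP3 library at 154 CPM the log2 fold change was 1.22. P2ry14 (GRCm38 chromosome 3, 59113855 to 59153618, minus strand) lies inside Med12l on the other strand, and since the strand setting of the counting is not given in the sources used here, reads of the 2 genes cannot be told apart. Med12l itself was 70.3 ± 10.04 CPM in Y-WT HSCs and 40.8 ± 8.19 CPM in Y-WT MPP3 cells, the opposite order.

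P2ry2, the receptor of ATP and UTP, was 12.0, 20.9, 16.6 and 12.2 CPM in Y-WT HSCs and 27.2, 33.4, 36.9 and 29.2 CPM in Y-WT MPP3 cells. It was 13.8, 14.4, 15.6 and 14.0 CPM against 32.2, 25.9, 26.8 and 23.7 CPM in TTPΔARE, and neither pair of ranges overlapped. The log2 fold changes were 1.01 (SE 0.18, adjusted p = 0.00290) and 0.83 (SE 0.15, adjusted p = 0.00407). P2rx1 was 58.0 to 65.7 CPM in Y-WT HSCs and 41.0 to 50.1 CPM in Y-WT MPP3 cells (log2 fold change -0.46, SE 0.09, adjusted p = 0.00450). It was 59.8 to 67.9 against 30.1 to 44.9 CPM in TTPΔARE (log2 fold change -0.86, SE 0.15, adjusted p = 0.00248). The difference between these 2 changes was -0.43 (SE 0.18, adjusted p = 0.391) and did not pass.

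P2ry1 was called in WT, falling by 0.71 on the log2 scale (SE 0.22, adjusted p = 0.0391), although the ranges overlapped at 5.45, 8.72, 9.81 and 9.33 CPM in HSCs and 4.44, 6.59, 4.62 and 5.03 CPM in MPP3 cells. The platelet marker sum was 199 to 239 CPM in Y-WT HSCs and 155 to 169 CPM in Y-WT MPP3 cells, with Itga2b at a mean of 109 and 114 CPM, and its part was not tested. The P2ry1 call was lost in 6 of the 8 fits that left out 1 library (adjusted p up to 0.110). In TTPΔARE the log2 difference of P2ry1 was -0.53 (adjusted p = 0.234). Adora2a, the high-affinity adenosine receptor of the pair, was called in TTPΔARE at -0.44 (SE 0.13, adjusted p = 0.0370), with overlapping ranges of 27.0 to 33.0 and 21.1 to 30.5 CPM. Its call was lost in 7 of the 8 fits without 1 library and with the replicate block, which pairs these libraries by number (adjusted p = 0.0599), and in WT its log2 difference was -0.11 (adjusted p = 0.593). Nt5e was at 1.42 to 2.90 CPM in Y-TTPΔARE HSCs and at 0 to 0.397 CPM in Y-TTPΔARE MPP3 cells (log2 difference -3.11, SE 0.80, adjusted p = 0.0225), but its average level was under the abundance limit.

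Of the members without a call in either genotype, P2rx4 had log2 differences of 0.04 in WT and 0.17 in TTPΔARE, Entpd1 of 0.10 and 0.17, and P2rx7 of -0.44 and -0.31. Adora2b had one of -0.38 in WT (adjusted p = 0.480) and 0.64 in TTPΔARE (adjusted p = 0.0921). In WT 4 of the 10 members were called, 2 in each direction, against 22.2% of all genes tested (5069 of 22816), and in TTPΔARE also 4, again 2 in each direction, against 16.3% (3500 of 21478). The median log2 difference of the members was -0.18 in WT and -0.07 in TTPΔARE, that of all genes -0.16 and -0.05, and that of the genes above the abundance limit 0.12 and 0.04.

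**Figure D5:**
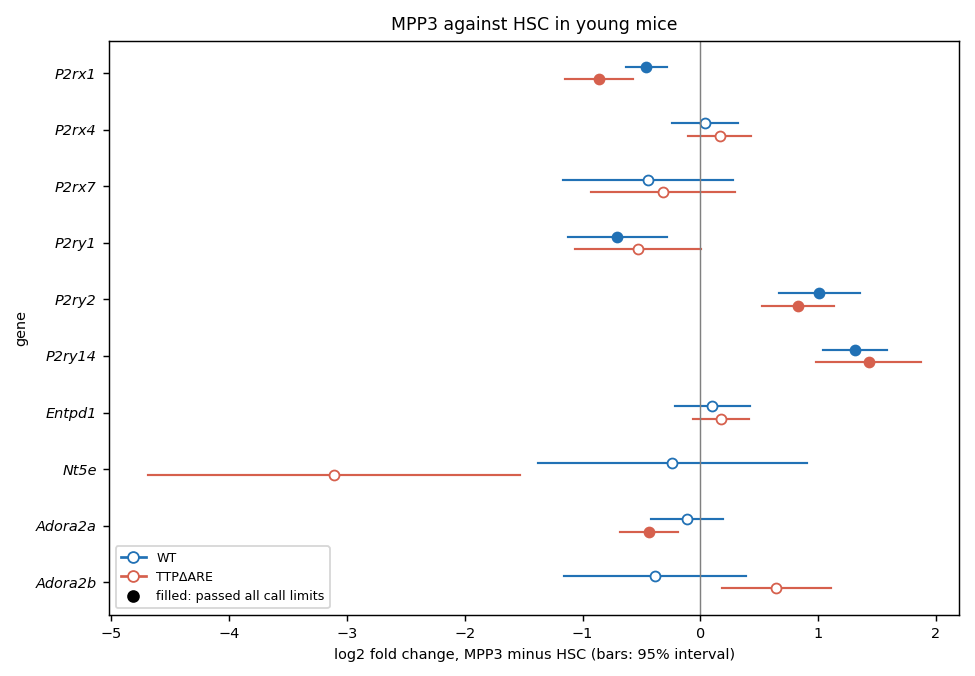
Log2 fold change of MPP3 cells against HSCs of young mice for each member in WT and in TTPΔARE, with bars for the 95% interval. P2ry2 and P2ry14 lie near or above 0.83 in both genotypes and P2rx1 below 0, all as filled points that passed the call limits.

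The third comparison was between middle-aged and young WT HSCs. P2ry14 was lower in the middle-aged mice, with 23.4, 21.5, 22.1, 18.1 and 23.3 CPM in M-WT against 26.6 to 32.1 CPM in Y-WT, and the ranges did not overlap. It fell by 0.44 on the log2 scale (SE 0.11, adjusted p = 0.0176). The call was lost without Y-WT HSC replicate 2 (adjusted p = 0.0556) and with all 24 libraries in the fit (adjusted p = 0.13). Med12l, the overlapping gene, was 112 ± 14.1 CPM in M-WT and 70.3 ± 10.04 CPM in Y-WT HSCs, again the opposite order. P2ry1 was 9.85 to 11.8 CPM in M-WT and 5.45 to 9.81 CPM in Y-WT, apart but without a call (log2 difference 0.38, SE 0.16, adjusted p = 0.112). P2ry2 had a log2 difference of -0.46 (adjusted p = 0.0896) and Adora2a one of 0.26 (adjusted p = 0.122). Both were called, at adjusted p values of 0.0350 and 0.0352, when Y-WT HSC replicate 1 was left out, so that the number of called members rose from 1 to 3. Over all genes 12.1% were called (2691 of 22280), and 1 of the 9 members tested was. P2rx7 was not tested here because the M-WT libraries were controls of the contrast that chose it, and its group means were 7.69 and 9.12 CPM. T and NK cell markers summed to 51.9 to 64.1 CPM in M-WT and 85.9 to 109 CPM in Y-WT. Monocyte and macrophage markers summed to 423 to 479 against 482 to 774 CPM, and endothelial markers to 592 to 688 against 332 to 564 CPM. Within the endothelial sum Vwf was higher in M-WT (mean 385 against 100 CPM). The means of Cdh5 (1.15 and 13.3 CPM), Kdr (32.2 and 73.5 CPM) and Ptprb (3.84 and 18.6 CPM) were lower in M-WT. So were those of Emcn (36.7 and 50.3 CPM), Pecam1 (65.9 and 74.4 CPM) and Tek (106 and 110 CPM). HSC markers summed to 3772 to 4484 CPM in M-WT and 3121 to 3509 CPM in Y-WT. Granulocyte/monocyte progenitor markers summed to 216 to 272 against 151 to 171 CPM. Within the progenitor sum the means of Prtn3 (214 and 111 CPM) and Csf1r (12.7 and 11.8 CPM) were higher in M-WT, those of the other markers lower. B cell, neutrophil, erythroid and platelet sums overlapped. Y-WT HSC replicates 2, 3 and 4 had the 597 to 983 CPM of olfactory and vomeronasal receptor genes. The part of these in the age differences was not tested.

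Other genes of the system were taken from 7 lists of 41 genes, made up of further receptors, ectonucleotidases, nucleoside handling, nucleotide release and inflammasome partners of P2X7. In young HSCs 39 of them were tested and none was called by edgeR's quasi-likelihood test, with 5 (P2rx6, Slc28a2, Panx1, Art2b and Casp1) at an unadjusted p under 0.05. In young MPP3 cells 36 were tested and 2 were called, both P2Y receptors and both higher in TTPΔARE, as were 300 of the 326 genes called over all (1.71% of those tested). P2ry6, the UDP receptor known from macrophages, was 0.846, 0.260, 1.07 and 0.933 CPM in Y-WT and 13.5, 6.73, 15.0 and 19.3 CPM in Y-TTPΔARE MPP3 cells, where the macrophage marker Adgre1 was also higher. The log2 fold change was 4.07 (SE 0.42, adjusted p = 7.62e-04). In young HSCs P2ry6 was 1.11 ± 0.642 and 1.21 ± 0.533 CPM, and the difference of the genotype effect between the cell types was 3.88 (SE 0.76, adjusted p = 0.0317), a call that was lost in 12 of the 16 fits without 1 library (adjusted p up to 0.0796). P2ry10, a receptor of lysophosphatidylserine in lymphoid cells, rose from 10.2 ± 0.928 to 21.9 ± 4.99 CPM (log2 fold change 1.07, SE 0.20, adjusted p = 0.0220), and its call was lost in 4 of the 8 fits without 1 library.

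Of the inflammasome partners, none was called for genotype in young HSCs or MPP3 cells. Il1b, the cytokine whose release P2X7 triggers, had 0.0633 ± 0.0476 CPM in Y-WT and 5.31 ± 6.11 CPM in Y-TTPΔARE MPP3 cells (log2 difference 6.34, adjusted p = 0.0213), but was under the abundance limit of the calls. Art2b, which encodes an enzyme that gates mouse P2X7 by ADP-ribosylation, was 6.21 ± 1.76 and 11.3 ± 3.31 CPM in Y-WT and Y-TTPΔARE HSCs (log2 difference 0.83, adjusted p = 0.381).

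Between MPP3 cells and HSCs, 9 of the 39 listed genes tested were higher and 7 lower in WT, and 7 of 40 were higher and 5 lower in TTPΔARE, where 22.2% and 16.3% of all genes tested were called. Cd38, an ectoenzyme that uses NAD, was 48.4 ± 24.2 CPM in Y-WT HSCs and 3.11 CPM (range 1.85 to 5.19) in Y-WT MPP3 cells (log2 fold change -4.00, adjusted p = 3.97e-04) and also fell in TTPΔARE (log2 fold change -2.48, adjusted p = 1.19e-04). P2rx6, Entpd3, Gja1 and Art2b were lower in MPP3 cells in both genotypes, with log2 fold changes from -2.57 to -1.07. The adenosine deaminase Ada (0.84 and 0.91), Dpp4 (0.48 and 0.59), the ATP release channel Panx1 (1.02 and 0.72), Pycard (0.38 and 0.73) and P2ry10 (0.57 and 1.33) were higher in both. In WT HSCs of middle-aged against young mice, P2rx6 (0.59) and Entpd2 (0.85) were higher and Slc28a2 (-0.51) and Gja1 (-0.36) lower on the log2 scale, 4 of 37 listed genes tested, a share near the 12.1% of all genes called.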

How the data were processed

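Raw read counts per gene symbol were used for 24 bulk mRNA-seq libraries, as deposited. By the study's methods and processing notes the authors used cutadapt for trimming, STAR for alignment (mm10) and featureCounts for counting. How strand and multimapping reads were handled is not given in the sources used here, and the labels and methods name different library kits. Each comparison had its own fit in edgeR 4.0.16 (R 4.3.3) with TMM factors and the quasi-likelihood F test, after edgeR's filterByExpr (min.count 10, min.total.count 15). Calls required an adjusted p (Benjamini-Hochberg) below 0.05, over 1.2-fold change and average logCPM above 1.5, with no fold limit for the interaction. SE was the log2 fold change divided by the square root of F. The 95% intervals are the log2 fold change ± 1.96 SE, a normal approximation that can be too narrow with so few libraries. Library totals of 24261371 to 39934554 counts set the counting precision. All 10 members were named, and of the pathway lists those called or those that a result turned on. The members and lists were chosen with earlier results of these data known. Correlations of deviations between MPP3 and HSC libraries of like replicate number were 0.144 to 0.234 in all 4 pairs of TTPΔARE. In WT they were 0.0288 to 0.190, and in the other comparisons they had both signs. Libraries of unlike number were not compared, so pairing is not settled, and the main fits treat all libraries as unpaired. Alternatives were DESeq2 1.42.0, the likelihood ratio test, other scaling factors, no filter, no limits, a replicate block, a fit of all 24 libraries and leaving out each library. The scripts were tested on simulated data. All 4 Y-TTPΔARE MPP3 libraries were used, where the study's methods used fewer. One gene that the likeness to P2rx7 would name is not reported here.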

Additional observations from a re-analysis of the deposited data

Results flagged for a closer look

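Of 50 sets of 4 or 5 libraries of a member in a group, 2 held a library far from the others, and chance gives about 1 in 20. P2ry14 was 153.7 CPM in Y-TTPΔARE MPP3 replicate 4, against 72.1 to 86.0 CPM in the other 3 libraries. Entpd1 was 33.9 CPM in Y-TTPΔARE HSC replicate 2, against 28.0 to 29.0 CPM in the other 3. The effect of TTPΔARE on P2ry6 was larger in MPP3 cells than in young HSCs by 3.88 on the log2 scale (adjusted p = 0.0317, edgeR's quasi-likelihood test of the interaction), and the monocyte and macrophage marker sum was also higher in the Y-TTPΔARE MPP3 libraries (1100 to 1926 CPM against 518 to 864 CPM in Y-WT), which was not tested as a part of it.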

How the results depend on the processing

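Of 639 recomputed values of single genes, 577 kept their call and direction, 46 lost the call, 11 gained it, 4 changed sign and 1 moved by more than 1 SD. In young HSCs the number of called members went from 0 to 1 (P2rx7) with DESeq2, with the likelihood ratio test and without the filter, and the number of called genes from 6 to 304, 146 and 73. It was 18 with all 24 libraries in the fit and 3 without the 2 Y-TTPΔARE HSC libraries of highest Cd3 sum, which was chosen after seeing the data. In MPP3 cells 2 members were called with DESeq2 and with all 24 libraries, and 0 with the replicate block. The called genes were 766 with DESeq2, 540 with the likelihood ratio test and 1244 with all 24 libraries. For MPP3 against HSC in TTPΔARE, all 24 libraries gave 5747 genes. With age, 2 members were called without the filter and 0 with all 24 libraries, and 4453 genes were called without limits and 1580 with the replicate block. Genes with a different genotype effect between the cell types numbered 334 with DESeq2, 202 with the likelihood ratio test and 261 with all 24 libraries. Leaving out 1 library at a time gave 0 to 0 called members and 0 to 12 genes in young HSCs, 0 to 0 and 185 to 347 in MPP3 cells, 3 to 4 and 3623 to 6499 between cell types in WT, 3 to 4 and 2313 to 4013 in TTPΔARE, 0 to 3 and 1990 to 3658 with age, and 0 to 0 and 66 to 132 for the interaction. In those fits the interaction of P2rx7 ranged from -0.12 to 0.37, with the reversed values -0.12, -0.11, -0.02 and -0.01. The replicate block in edgeR gave P2rx7 log2 differences of 1.09 in young HSCs (adjusted p = 0.251), 1.31 in MPP3 cells (adjusted p = 0.366) and 1.86 in middle-aged HSCs. In these comparisons the correlations between libraries of like number had both signs. The adjusted p of Adora2b in MPP3 cells was 0.185 with the replicate block. RLE factors moved the median of all genes by less than 0.1. The causes of these changes were not tested. Counts limit Nt5e most, with 0 CPM in 1 library.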
